A study of Mus musculus with 10 samples.

Results

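Cholesterol synthesis and sterol handling was followed as a set of 29 genes in the mouse trigeminal ganglion. The genes were taken by symbol, through their Ensembl identifiers, with no cut-off on their values. The list was, however, made with earlier results of these data known. Each had exactly 1 row among the 26411 genes of the surgery table and 1 row among the 55886 genes of the injection table. All 29 had a mean of at least 0.5 FPKM (fragments per kilobase of gene length per 1e6 reads) in both tables and were tested.

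The trigeminal ganglion holds the cell bodies of the sensory neurons of the face, together with satellite glia, Schwann cells, macrophages and connective tissue. RNA was sequenced from 10 libraries of whole ganglion. In the surgery experiment, 3 sham libraries and 3 pIONT libraries were taken on day 10 (pIONT is not spelled out in the labels, and the series is about trigeminal neuropathic pain). In the injection experiment, 2 PBS libraries and 2 UCN1 libraries were taken 6 hours after the agent was injected into the ganglion. UCN1 is the peptide urocortin 1, and PBS is its vehicle. The submitters' descriptions number these libraries P1 and P3 (PBS) and U1 and U3 (UCN1), and whether others were made is not known. Strain, sex, age, the side sampled and whether a library was 1 animal or a pool are not given in the sources used here, so the tests read only the variation from library to library, which may be technical.

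Cells make cholesterol from acetyl-CoA through mevalonate, farnesyl diphosphate, squalene and lanosterol. When sterol in the endoplasmic reticulum is low, the escort protein SCAP carries SREBP transcription factors to the Golgi, where they are cut and released to activate the genes of synthesis, and INSIG proteins hold SCAP back when sterol is plentiful. Excess sterol is esterified, pumped out by ABC transporters whose genes are targets of the oxysterol receptor LXR, or hydroxylated. In peripheral nerve, myelinating Schwann cells are a major site of synthesis, since myelin is rich in cholesterol.

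SREBP binds sterol regulatory elements and works with the factor NF-Y, which binds the CCAAT box, so the proximal promoters were read first. RefSeq promoters (build GRCm38.p6, 250 bases before to 50 after the start of transcription) were found for 24 of the 29 genes by symbol. Fdps, Fdft1, Sqle, Stard4 and Abcg1 are named only. The 250 bases before the start are printed for Hsd17b7 and Mvk, which rose after pIONT, for Cyp51, which fell, and for Hmgcs1, the only member with the element searched for. Capitals mark CCAAT, read as ATTGG where it lies on the other strand, and the sterol regulatory element core. The coordinates are chr1:169969206-169969455 (minus strand) for Hsd17b7, chr5:114444019-114444268 (plus) for Mvk, chr5:4104698-4104947 (minus) for Cyp51 and chr13:119690101-119690350 (plus) for Hmgcs1.
Hsd17b7: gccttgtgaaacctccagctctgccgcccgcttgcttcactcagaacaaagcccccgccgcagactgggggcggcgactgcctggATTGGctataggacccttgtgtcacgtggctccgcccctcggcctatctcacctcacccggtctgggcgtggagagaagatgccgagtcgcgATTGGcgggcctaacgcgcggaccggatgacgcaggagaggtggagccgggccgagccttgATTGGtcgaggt
Mvk: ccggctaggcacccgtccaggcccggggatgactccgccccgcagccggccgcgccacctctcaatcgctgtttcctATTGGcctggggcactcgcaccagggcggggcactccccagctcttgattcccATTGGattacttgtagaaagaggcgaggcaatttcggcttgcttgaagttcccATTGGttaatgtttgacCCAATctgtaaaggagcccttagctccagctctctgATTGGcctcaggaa
Cyp51: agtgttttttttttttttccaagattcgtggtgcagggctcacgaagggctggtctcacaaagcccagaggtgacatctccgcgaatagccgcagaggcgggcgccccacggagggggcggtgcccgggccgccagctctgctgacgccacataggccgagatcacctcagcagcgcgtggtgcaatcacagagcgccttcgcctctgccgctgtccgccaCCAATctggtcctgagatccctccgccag
Hmgcs1: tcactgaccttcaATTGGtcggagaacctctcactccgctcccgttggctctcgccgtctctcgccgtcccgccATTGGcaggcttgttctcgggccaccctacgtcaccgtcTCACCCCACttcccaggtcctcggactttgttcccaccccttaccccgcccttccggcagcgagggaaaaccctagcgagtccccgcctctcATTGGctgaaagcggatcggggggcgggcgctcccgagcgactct

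The core of the sterol regulatory element, TCACCCCAC on either strand, was present in 1 of the 24 members, Hmgcs1, where its first base lay at -137. It was held by 0.614% of all 27025 genes with a promoter and by 0.694% of those tested in the surgery experiment. The looser form TCACNCCAC, which also takes in the core, was found in the same member alone, against 1.44% of all genes and 1.46% of the tested ones. CCAAT on either strand stood in 21 of the 24 members, against 41.1% of all genes and 42.1% of the tested ones. It occurred 5 times in the Mvk window, 3 times in that of Hsd17b7 (at -165, -73 and -12, all on the other strand) and once in that of Cyp51, at -29. The GC box GGGCGG stood in 23 of 24, against 38.2% of all genes and 67.3% of the tested ones. The Abca1 window held GC boxes and no match to the other motifs. A match is only a description of these letters in this window.

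Depth was 24.217 to 29.743 M reads per library in the surgery table and 15.7 to 17.12 M in the injection table (M for 1e6 reads, from the steps of the FPKM values). Neuronal markers such as Tubb3 and Prph were high in every library. Sham 1 stood apart in pituitary markers, with a summed level of 765 FPKM against 80.7 to 255 in the 5 other libraries of its table, and in markers of brainstem root glia, with 37.6 FPKM against 16.5 to 20.6. Library pIONT 2 stood apart in macrophage markers, with 859 FPKM against 162 to 395. PBS libraries held more pituitary RNA, at 122 and 124 FPKM, than UCN1 libraries, at 9.14 and 9.61. Each result was recomputed without each library in turn. Leaving out 1 library cannot remove the pituitary difference between PBS and UCN1, since both libraries of each group carry it. Hmgcs1, Fdft1, Fdps, Tm7sf2 and Scap share 12.1% to 26.7% of their exon bases with another gene, so their values are less certain.

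After pIONT the members did not move together. Hsd17b7, an enzyme of the late sterol pathway, rose 5.24-fold, and Abca1, the transporter that loads cholesterol onto apolipoproteins, rose 3.59-fold (ratios of mean FPKM). Ebp and Mvk rose 1.27-fold and 1.22-fold, while Lss, Cyp51, Dhcr7, Srebf2 and Cyp46a1 fell to 0.781 to 0.887 of their sham means. Of the 29 members, 4 rose, 5 fell and 20 did not pass the test (limma on log2(FPKM + 0.5), called at a Benjamini-Hochberg adjusted p below 0.05 over all tested genes). That is 31% of the members, against 22.8% of the 14672 genes tested (10.5% called higher and 12.3% called lower). The median log2 fold change of the members was -0.04, and that of all genes tested was -0.02. All pIONT libraries lay above all sham libraries for 8 members and below them for 8, against 18.7% and 24.7% of all genes tested (43.4% in either direction). Before adjustment 12 of 29 had a p below 0.05, against 37% of all genes. Without sham 1 the members called were 3 higher and 2 lower, and without pIONT 2 they were 4 higher and 2 lower.

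**Figure D1:**
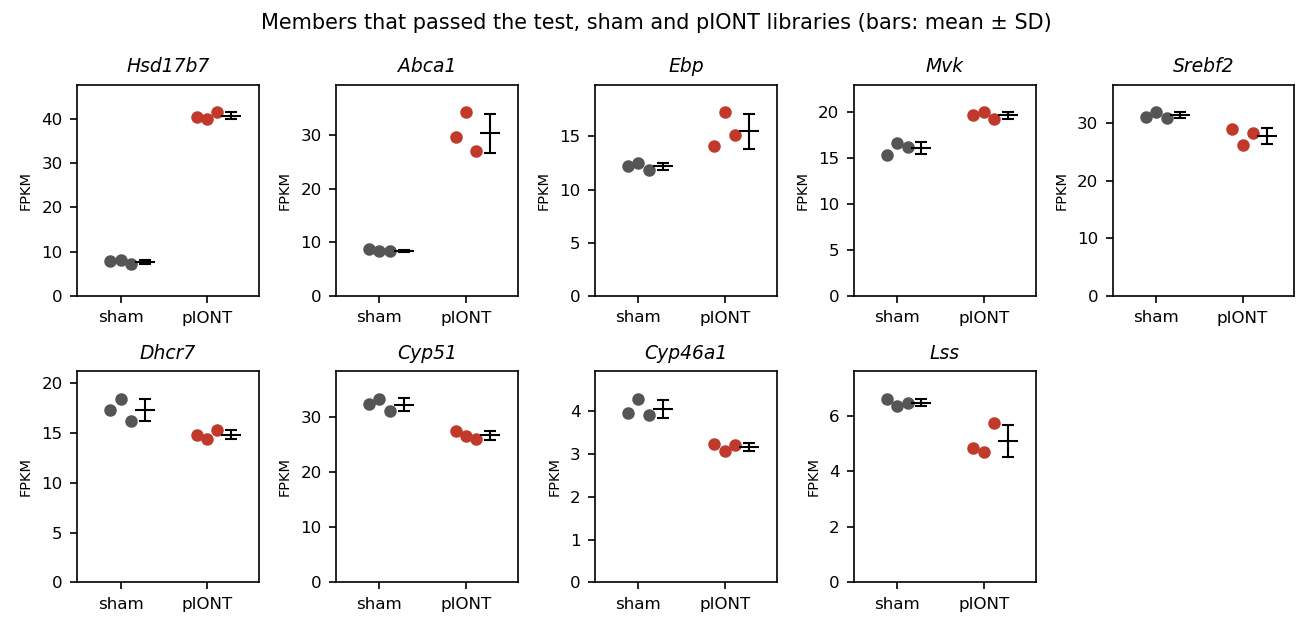
FPKM of the 9 members that passed the test, 1 panel per gene, in 3 sham (grey) and 3 pIONT (red) libraries, each axis from 0, with mean and SD bars. Hsd17b7 and Abca1 stand far above sham in all 3 pIONT libraries, and the other 7 members lie between 0.781 and 1.27 times their sham means.

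The thiolase and mevalonate enzymes, which build the carbon skeleton up to squalene, showed little difference in total. Their summed FPKM was 379, 384 and 369 in sham and 391.5, 361 and 378 in pIONT, so the groups overlapped. Mvk, mevalonate kinase, was the only one of the 8 that passed. It was at 15.3, 16.6 and 16.1 FPKM in sham and 19.7, 19.97 and 19.2 in pIONT (16.0 ± 0.644 and 19.6 ± 0.397, SD, n = 3 each). Its log2 fold change was 0.28 (standard error 0.04, adjusted p = 0.0065 in limma), and it remained called in all 15 alternatives.

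Hmgcs1, the cytosolic HMG-CoA synthase that commits acetyl units to the pathway, had the highest level of all members per length. It was at 138, 133 and 130.1 FPKM in sham and 150.1, 115 and 129 in pIONT, with pIONT 1 highest and pIONT 2 lowest of the 6 libraries. The log2 fold change was -0.03, with a 95% interval of -0.25 to 0.18. Mvd, the decarboxylase that makes isopentenyl diphosphate, lay just past the threshold: 22.5, 24.3 and 22.8 FPKM in sham, 25.3, 25.8 and 26.1 in pIONT, log2 fold change 0.15 (limma adjusted p = 0.0511). It passed in 4 of 15 alternatives. Of the other 5, Acat2 (thiolase) had a log2 fold change of 0.10, with all pIONT libraries above sham. Pmvk (phosphomevalonate kinase), Idi1 (isopentenyl diphosphate isomerase), Fdps (farnesyl diphosphate synthase) and Fdft1 (squalene synthase) lay between -0.23 and -0.04, with overlapping groups.

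Of the 10 enzymes from squalene to cholesterol, 2 were called higher and 3 lower. That is 50%, against 22.8% of all genes tested, and the roles were not tested against each other. Hsd17b7 encodes the 3-keto-steroid reductase that acts during removal of the C4 methyl groups and can also reduce estrone. In the surgery table it lies at chr1:169777104-169796810 (GRCm39, per the submitters' processing notes), and it shares no exon bases with another gene in GENCODE vM21. It was at 7.96, 8.07 and 7.23 FPKM in sham and 40.5, 40.1 and 41.5 in pIONT (7.76 ± 0.456 and 40.7 ± 0.749, SD, n = 3 each). The groups were far apart and each was tight. The log2 fold change was 2.32 (standard error 0.05, adjusted p = 1.49e-06 in limma), resting on 894 to 6301 reads per library. By p-value it ranked 6 of all genes tested, and by log2 fold change 40 of the 1537 called higher. Over the 15 alternatives its log2 fold change ran from 2.25 to 2.38, and it was called in each.

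The other members that act in removal of the C4 methyl groups, Nsdhl and Msmo1, did not pass. Nsdhl, the sterol dehydrogenase of the preceding C4 demethylation step, was at 26.8, 27.9 and 27.4 FPKM in sham and 30.2, 27.6 and 29.5 in pIONT, overlapping groups with a log2 fold change of 0.09. Msmo1, the C4 methyl oxidase, was at 26.0, 25.5 and 23.9 FPKM in sham and 21.4, 19.7 and 23.8 in pIONT. Its log2 fold change of -0.21 did not pass (limma adjusted p = 0.0762). In FPKM, which is per length, Hsd17b7 stood below Nsdhl and Msmo1 in every sham library and above both in every pIONT library.

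Ebp, the sterol isomerase that shifts the ring double bond, rose. It was at 12.2, 12.5 and 11.9 FPKM in sham and 14.1, 17.3 and 15.1 in pIONT, without overlap and with pIONT 2 highest. The log2 fold change was 0.33 (standard error 0.07, adjusted p = 0.022 in limma). The call was lost when any sham library was left out, with log2 fold changes of 0.31 to 0.35.

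Cyp51 and Lss, which act on and form lanosterol, fell. Cyp51, the lanosterol 14-demethylase, was at 32.4, 33.4 and 31.0 FPKM in sham and 27.6, 26.5 and 26.0 in pIONT. Its log2 fold change was -0.27 (standard error 0.04, adjusted p = 0.00779 in limma), called in all 15 alternatives. Lss, lanosterol synthase, was at 6.62, 6.35 and 6.45 FPKM in sham and 4.86, 4.69 and 5.74 in pIONT, so that pIONT 3 lay nearer to sham. Its log2 fold change was -0.32 (standard error 0.08, adjusted p = 0.025 in limma). The call ended without any 1 of the sham libraries, pIONT 1 or pIONT 2, with log2 fold changes of -0.34 to -0.27.

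Dhcr7, the reductase of the last step, was at 17.3, 18.4 and 16.1 FPKM in sham and 14.8, 14.4 and 15.3 in pIONT. It fell by a log2 fold change of -0.21 (limma adjusted p = 0.0359), close to the threshold: it was called in only 6 of 15 alternatives, with log2 fold changes of -0.26 to -0.17, and lost without any library except sham 3. Sqle, squalene epoxidase, had the highest mean level of these 10 enzymes over the 6 libraries, though Hsd17b7 was higher in pIONT, and did not pass: 33.1, 33.6 and 33.1 FPKM in sham and 36.3, 33.6 and 35.0 in pIONT, log2 fold change 0.07. Tm7sf2 (sterol 14-reductase) and Sc5d (sterol 5-desaturase) had log2 fold changes of -0.03 and -0.05 with overlapping groups. The summed level of the 10 enzymes was 194, 200 and 189 FPKM in sham and 221, 213 and 226 in pIONT. Within these sums Hsd17b7 went from a mean of 7.76 to 40.7 FPKM.

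Among the regulators, Srebf2, which encodes the SREBP that drives cholesterol synthesis, fell slightly. It was at 31.1, 31.9 and 30.9 FPKM in sham and 28.9, 26.2 and 28.2 in pIONT, without overlap. Its log2 fold change was -0.17 (standard error 0.05, adjusted p = 0.0401 in limma), and it was called in 6 of 15 alternatives. Leaving out any library except pIONT 1 ended the call, with log2 fold changes of -0.18 to -0.13. Insig1, itself an SREBP target, was at 33.2, 29.2 and 30.9 FPKM in sham and 28.97, 25.8 and 33.6 in pIONT, overlapping groups. Srebf1, Scap and Insig2 were at 0.20, 0.04 and -0.08 on the log2 scale, short of the threshold. Srebf1, the SREBP gene more tied to fatty acids, passed in 1 alternative, without pIONT 3, at 0.32.

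Of the transport and turnover genes, Abca1 (chr4:53030787-53159895) rose and Cyp46a1 fell. Abca1 was at 8.68, 8.34 and 8.34 FPKM in sham and 29.6, 34.3 and 27.1 in pIONT (8.46 ± 0.197 and 30.3 ± 3.68, SD, n = 3 each). All pIONT libraries were far above sham, and pIONT 2 was the highest. The log2 fold change was 1.78 (standard error 0.08, adjusted p = 5.5e-05 in limma), resting on 2093 to 10414 reads, and by p-value it ranked 32 of all genes tested. Over the 15 alternatives it ran from 1.69, without pIONT 2, to 1.85 and was called in each.

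Markers of macrophages, which are among the cells that use Abca1, were also higher after pIONT. All 10 macrophage markers were higher in every pIONT library than in any sham library, and 7 passed the test. Over all genes tested, 18.7% lay higher without overlap and 10.5% were called higher. The summed level of the macrophage markers was 300.3, 162 and 197 FPKM in sham and 395, 859 and 351 in pIONT. The part of macrophages in the Abca1 result was not tested, and in whole tissue a change in the number of cells of a type and a change in RNA per cell cannot be told apart. Abcg1, the other ABC transporter among the members, was at 11.7, 11.0 and 12.3 FPKM in sham and 11.3, 10.5 and 10.6 in pIONT. Its log2 fold change was -0.11 (95% interval -0.24 to 0.02).

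Cyp46a1, the neuronal cholesterol 24-hydroxylase, had the lowest mean level of the 29 per length. It was at 3.95, 4.30 and 3.92 FPKM in sham and 3.22, 3.07 and 3.22 in pIONT, without overlap. It fell by a log2 fold change of -0.31 (standard error 0.06, adjusted p = 0.011 in limma), called in all 15 alternatives. Stard4, a soluble sterol carrier, had all pIONT libraries below sham and a log2 fold change of -0.19 (limma adjusted p = 0.0701). Soat1, which esterifies cholesterol, had all pIONT libraries above sham and a log2 fold change of 0.19 (limma adjusted p = 0.155). Osbp, which exchanges sterol for phosphoinositide between membranes, was at 0.03.

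Markers of the other cell types of the ganglion gave a background that differed between the groups. Over all genes tested, 10.5% were called higher and 12.3% lower. Of 9 markers of myelinating Schwann cells, 4 were called lower, and the summed level was 2299 to 2431 FPKM in sham and 1879.8 to 1934 in pIONT. Of 8 neuronal markers, 3 were called higher and 3 lower. Of 6 satellite glia markers, 2 were called higher. The part of these cells in the falls of Lss, Cyp51, Dhcr7, Srebf2 and Cyp46a1 was not tested. Without sham 1, Hsd17b7 and Abca1 were at 2.34 and 1.79, and both were called.

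**Figure D2:**
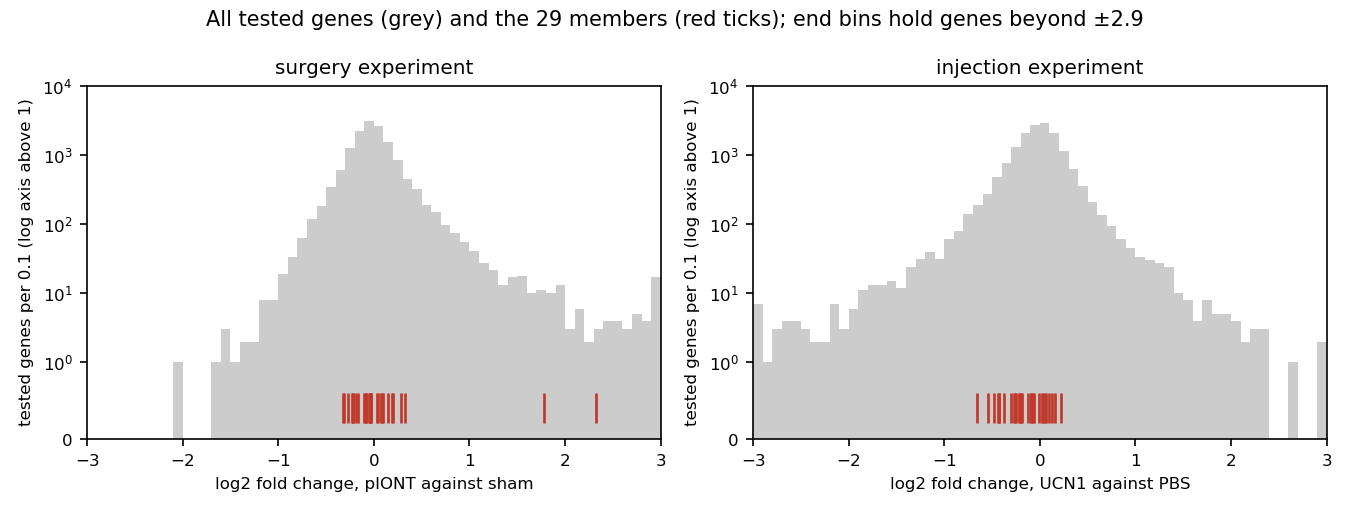
Distribution of log2 fold changes of all tested genes (grey, number of genes per bin) with the 29 members marked, 1 panel per experiment. After pIONT most members lie near the centre with Hsd17b7 and Abca1 far to the right, and after UCN1 most lie left of 0.

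The neighbouring pathways were also mixed after pIONT. Of 14 genes of fatty acid synthesis, 3 were called higher and 4 lower, with a median log2 fold change of 0.01. That is 50%, against 22.8% of all genes tested. Acly, which supplies cytosolic acetyl-CoA to both fatty acids and sterols, rose from 82.8 ± 0.783 to 98.0 ± 1.82 FPKM (SD, n = 3 each, log2 fold change 0.24). Mid1ip1 (-0.31), an activator of acetyl-CoA carboxylase, Elovl6 (-0.34), a fatty acid elongase, and Acacb (-0.51), a carboxylase, fell. Mid1ip1 shares 25.5% of its exon bases with a gene on the other strand, so its value is less certain. The other 2 called higher were Fasn, fatty acid synthase (0.24), and Scd1, a desaturase (0.22), and the other called lower was Pnpla3 (-0.63). These 3 were named after their values were seen, to complete the calls. Of 13 genes of the isoprenoid branches, 1 was called higher and 3 lower, with a median of -0.08. That is 30.8%, against the same 22.8%. Nus1 (0.20), a subunit of the dolichol synthase, rose, while its partner Dhdds (-0.17), the ubiquinone enzyme Coq2 (-0.32) and the mitochondrial thiolase Acat1 (-0.21) fell.

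Of 25 genes of sterol uptake, trafficking and LXR signalling, 4 were called higher and 3 lower, with a median of -0.01. That is 28%, against 22.8% of all genes tested. The 4 with the smallest p were the sterol and lipid transfer proteins Osbpl9 (-0.36), Gramd1b (-0.35) and Gramd1a (0.24), and Vps51 (-0.22), a subunit of a Golgi tethering complex. These hold all 3 genes called lower but, of the 4 called higher, only Gramd1a. The highest log2 fold change in the list was 0.74. Gramd1a and Gramd1b, related carriers of plasma membrane cholesterol, thus changed in opposite directions. Vps51 shares exon bases with the member Tm7sf2 on the same strand. The groups of both Gramd1 genes did not overlap, at 22.7 to 23.6 and 27.2 to 27.6 FPKM for Gramd1a and 30.4 to 32.3 and 23.3 to 25.3 for Gramd1b, sham first.

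At 6 hours after UCN1 the enzymes of synthesis were lower as a rule, but no member passed the test. Of the 29 members, 0 were called higher and 0 lower (limma, adjusted p below 0.05), against 0.601% of the 16139 genes tested. Before adjustment 10 had a p below 0.05, all of them lower in UCN1, against 6.73% of all genes tested in that direction. Both UCN1 libraries were below both PBS libraries for 17 members and above them for 2, against 23.7% and 21.8% of all genes. The log2 fold change was below 0 for 21 of 29, with a median of -0.19 against -0.01 over all genes tested. With 2 libraries per group and genes of a pathway that vary together, these counts are a description.

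**Figure D3:**
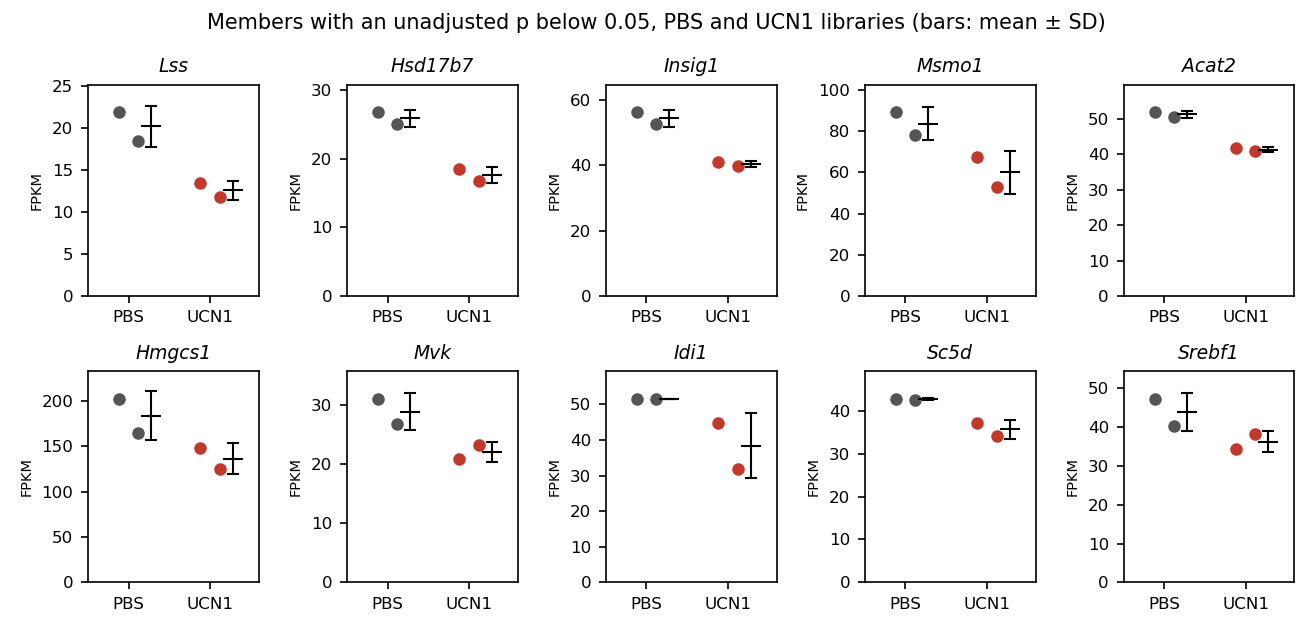
FPKM of the 10 members with an unadjusted p below 0.05 in 2 PBS (grey) and 2 UCN1 (red) libraries, each axis from 0, with mean and SD bars. In each panel both UCN1 libraries lie below both PBS libraries, and none of the 10 passes after adjustment.

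By role, an unadjusted limma p below 0.05 was found for 4 of 8 mevalonate enzymes, 4 of 10 enzymes from squalene on, 2 of 5 regulators and 0 of 6 transport and turnover genes. The share over all genes tested was 13.1% in either direction and 6.73% lower in UCN1. The roles were not tested against each other. The summed level of the 18 enzymes was 958 and 872 FPKM in PBS and 783 and 728 in UCN1. The median log2 fold change was -0.26 for the 8 mevalonate enzymes, -0.16 for the 10 enzymes from squalene on, -0.09 for the 5 regulators and 0.07 for the 6 transport and turnover genes. Members with both UCN1 libraries below PBS numbered 7 of 8, 7 of 10, 2 of 5 and 1 of 6 in that order, against 23.7% of all genes. In the surgery table the same 18 enzymes summed to 558 to 584 FPKM in sham and 574 to 613 in pIONT. Those surgery sums include Hsd17b7, which went from a mean of 7.76 to 40.7 FPKM. FPKM levels are not compared across the tables, which used different gene lengths and annotations.

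Of the mevalonate enzymes, Hmgcs1 again had the highest level, at 202 and 164 FPKM in PBS and 148 and 124 in UCN1 (log2 fold change -0.42, 95% interval -0.71 to -0.14, limma adjusted p = 0.222). Acat2 was at 51.9 and 50.6 FPKM in PBS and 41.9 and 40.8 in UCN1 (-0.31, limma adjusted p = 0.221). Mvk was at 31.0 and 26.7 against 20.9 and 23.2 (-0.38). Idi1 was at 51.7 and 51.6 against 44.9 and 32.0 (-0.44), so its size rests largely on UCN1 2. Pmvk (-0.21), Mvd (-0.22) and Fdft1 (-0.19) were lower in both UCN1 libraries with an unadjusted p above 0.05.

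Fdps rested on few reads in this table. It was at 2.37 to 3.09 FPKM, from 46 to 62 reads per library. In GENCODE vM21, whose coordinates the injection table follows, 26.7% of its exon bases are shared with Gm43738 on the same strand. How that sharing bears on its count was not tested.

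Past squalene, Lss and Hsd17b7 had the lowest p of all members. Lss was at 21.9 and 18.5 FPKM in PBS and 13.4 and 11.8 in UCN1, a log2 fold change of -0.66 (95% interval -0.97 to -0.35, limma adjusted p = 0.1). Hsd17b7 was at 26.8 and 25.1 FPKM in PBS and 18.5 and 16.8 in UCN1, a log2 fold change of -0.55 (95% interval -0.80 to -0.29, limma adjusted p = 0.101). Both had non-overlapping groups, and both missed the threshold.

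Msmo1 was at 89.2 and 78.0 FPKM in PBS and 67.3 and 52.7 in UCN1 (-0.48, limma adjusted p = 0.189), and Sc5d at 42.8 and 42.5 against 37.2 and 34.1 (-0.26). Sqle (-0.12), Tm7sf2 (-0.20) and Dhcr7 (-0.09) were lower in both UCN1 libraries by smaller amounts. Cyp51, the most abundant of these enzymes per length, was at 104 and 78.9 FPKM in PBS and 88.9 and 83.7 in UCN1, so the UCN1 libraries lay between the PBS ones. Nsdhl (-0.06) and Ebp (0.02) overlapped too.

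Of the regulators, Insig1 was at 56.3 and 52.5 FPKM in PBS and 41.0 and 39.7 in UCN1 (log2 fold change -0.43, 95% interval -0.64 to -0.21, limma adjusted p = 0.112). Srebf1 was at 47.2 and 40.3 against 34.3 and 38.0 (-0.27). Srebf2, the regulator with the highest level, was at 129 and 126 FPKM in PBS and 113 and 127 in UCN1, overlapping groups. Scap (0.06) and Insig2 (0.13) overlapped too.

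The transport genes showed no common direction. Abcg1, the highest of them, was at 44.1 and 42.5 FPKM in PBS and 46.4 and 50.3 in UCN1 (0.16), and Soat1 at 21.5 and 25.0 against 27.0 and 27.1 (0.22), each without overlap. Abca1 was at 21.3 and 20.1 against 22.1 and 21.0 FPKM, with a log2 fold change of 0.06 (95% interval -0.19 to 0.30). Stard4 (-0.25) was lower in both UCN1 libraries. Osbp (-0.01) and Cyp46a1 (0.09) overlapped.

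**Figure D4:**
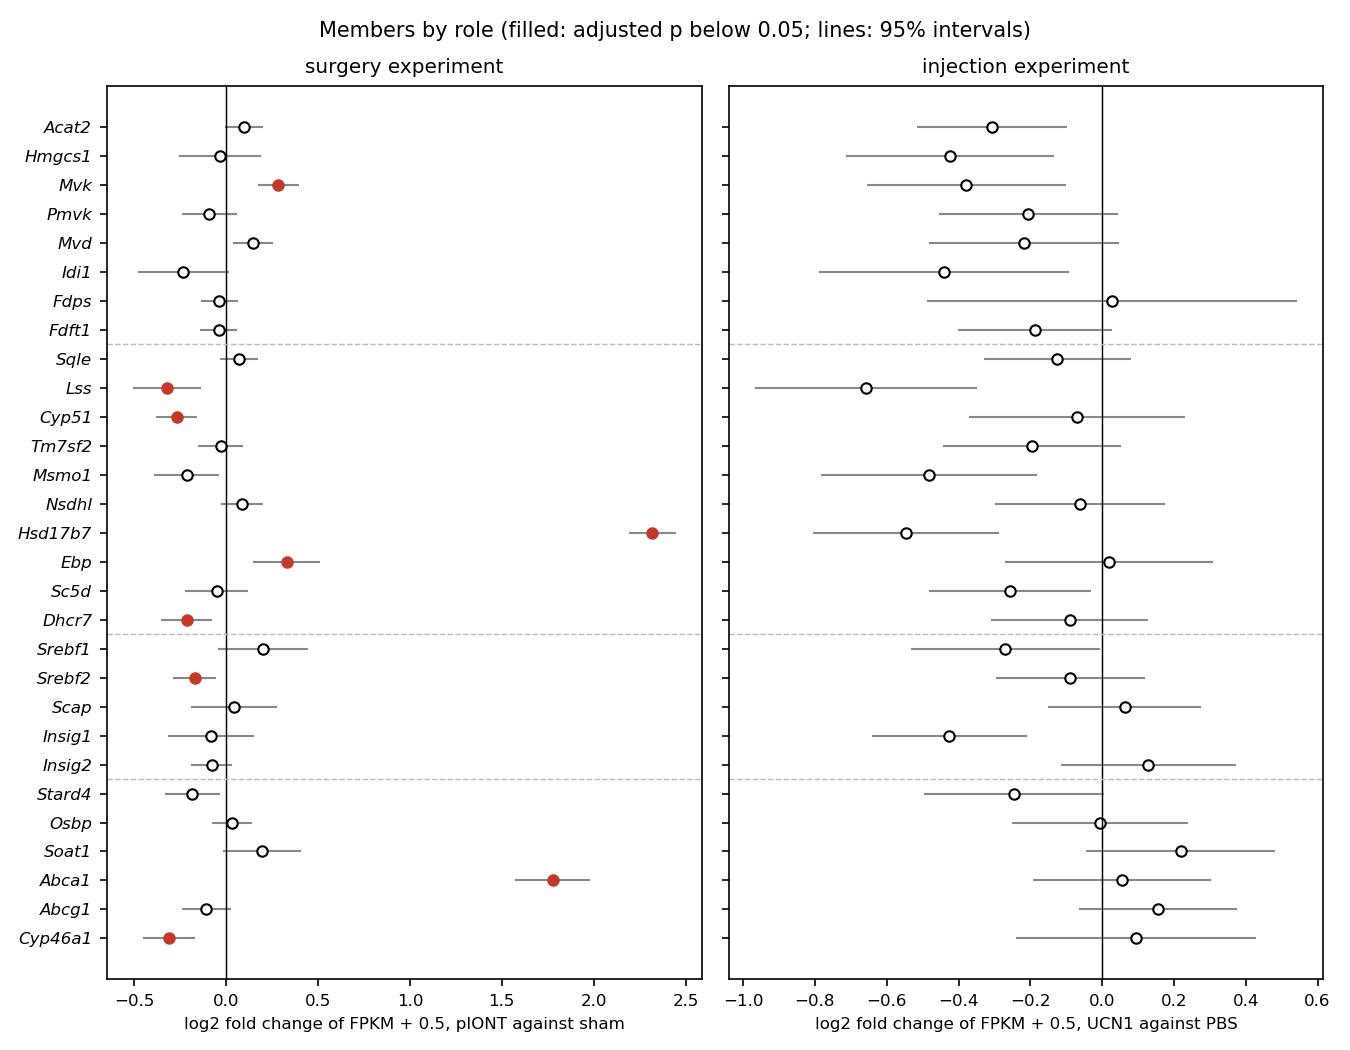
Log2 fold change of each of the 29 members with its 95% interval, ordered by role, in the surgery experiment (pIONT against sham) and the injection experiment (UCN1 against PBS). Hsd17b7 is at 2.32 after pIONT and -0.55 after UCN1, and most enzymes lie left of 0 after UCN1.

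Set side by side, Hsd17b7 was at 2.32 after pIONT and -0.55 after UCN1, Mvk at 0.28 and -0.38, and Lss at -0.32 and -0.66. Insig1 was at -0.08 and -0.43, and Hmgcs1 at -0.03 and -0.42. The tables were normalized apart, and the differences between the experiments were not tested.

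The neighbouring pathways gave no call after UCN1. Among 14 genes of fatty acid synthesis, 24 tested genes of uptake, trafficking and LXR signalling (Ch25h was below the level filter) and 13 of the isoprenoid branches, 0 passed in limma and 2 in each list had an unadjusted p below 0.05, against 13.1% of all genes tested in either direction. Their median log2 fold changes were -0.04, -0.02 and 0.08. Markers of other cell types moved between these groups as well. Over all genes tested, 0.304% were called higher and 0.297% lower. Of 5 tested pituitary markers 3 were called lower, and of 8 fibroblast and meningeal markers 2 were, with summed fibroblast levels of 959.7 and 738 FPKM in PBS and 709 and 687 in UCN1. Of 4 tested brainstem root glia markers 1 was called higher, the glial filament gene Gfap (log2 fold change 1.66, adjusted p = 0.0462 in limma). The other 3, Mobp (-0.59), Aqp4 (-0.11) and Mag (-0.06), lay below 0 and were not called. Of 6 satellite glia markers 5 lay above 0 and 0 were called, with Fabp7 at 0.66 (adjusted p = 0.0721 in limma). Summed Schwann cell markers were 10860.5 and 8952 FPKM in PBS and 9275 and 8541 in UCN1, with overlap and 0 of 9 called. The part of these cells in the values of the members was not tested.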

How the data were processed

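RNA was extracted with TRIzol and libraries made with a NEBNext Ultra II kit, per the labels' protocols. The authors deposited 1 table of FPKM per experiment. STAR, HTSeq, DESeq2 and the build GRCm39 stand in the submitters' processing notes, without versions or parameters. Coordinates in the injection table match GENCODE vM21 (GRCm38), and those of the surgery table do not. The sources used here do not give whether counting used strand. Low FPKM values were whole multiples of 1 read (tolerance 0.1 reads, up to 20 reads) for 92.62% to 93.09% of surgery values and 98.85% to 99.04% of injection values, which gave depth. Replicates differed by more than sampling noise.

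Each table was fitted apart in limma 3.58.1 (R 4.3.3), two-sided, for genes averaging at least 0.5 FPKM. The fit used log2(FPKM + 0.5), a trend of variance on level and no covariates. Fold changes are on that scale, which understates low genes. The script was tested on simulated data. All 29 members are reported. Members called in either table, and the highest of each role, have the value in every library, and up to 4 called genes by smallest p are named per pathway list. Genes, roles and lists were chosen with earlier results of these data known. Alternatives varied pseudocount, filter, scaling, trend, weights, replicate block and libraries. Further genes of the pathway, and 1 Schwann cell marker, are not reported here.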

Additional observations from a re-analysis of the deposited data

How the results depend on the processing

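Of 435 recomputed member fold changes in the surgery experiment, 396 kept direction and side of the threshold, as did 361 of 377 in the injection experiment. All genes called after pIONT (3344) were 1689 to 2969 with a library left out. Members called lower (5) were 3 without filter, with median-of-ratios scaling and with no trend, and 2 to 4 with a library left out. Members called higher were 3 to 5. The share of calls that were higher was 45.96%, 36.7% with TPM scaling and 54.8% with median-of-ratios scaling. After UCN1, all genes called (97) were 2 without filter, 155 at a mean of at least 2 FPKM, 5 with no trend and 5 to 38 with a library left out. Members called lower were 1 (Lss) at a mean of at least 2 FPKM. Leaving out a UCN1 or PBS library leaves 1 sample, which is assumed to vary like the other group. The cause of these shifts was not tested.

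Deviations of same-numbered libraries correlated weakly (-0.06, -0.20 and 0.07 after surgery, 0.04 after injection). No label says what the numbers stand for. With so few libraries per group, these correlations cannot show whether the samples were paired. With a replicate block, calls were 2085 in all and 3 members lower after pIONT, and 260 in all and 4 members lower after UCN1 (Lss, Hsd17b7, Msmo1 and Hmgcs1).

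Some uncalled members changed sign near 0. With a library left out after pIONT, Hmgcs1 ran from -0.13 to 0.057, Sc5d from -0.12 to 0.014, Scap from -0.074 to 0.11 and Insig1 from -0.18 to 0.0058. With a library left out after UCN1, Fdps ran from -0.13 to 0.19, Cyp51 from -0.27 to 0.13, Nsdhl from -0.15 to 0.033, Ebp from -0.066 to 0.10, Scap from -0.013 to 0.14, Osbp from -0.064 to 0.051 and Cyp46a1 from -0.060 to 0.25. After pIONT, Hmgcs1 was at 0.028 with array weights and Osbp at -0.0060 with TPM scaling, and after UCN1 Ebp was at -0.00999 with TPM scaling. After injection Fdps rested on 46 to 62 reads per library, the cause of which was not tested.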
